A study of Mus musculus with 11 samples.

Results

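The genes described here are 10 genes of T cell costimulation among the 32469 gene symbols of a bulk RNA-seq count table, namely Cd27, Cd28, Icos, Cd2, Cd226, Tnfrsf4, Tnfrsf9, Tnfrsf18, Tnfrsf1b and Cd40lg. The genes were taken by name, with no threshold on a measured value. All 10 were in the table, and 9 passed the filter on low counts and were tested. The cells came from tumors of Lewis lung carcinoma (LLC), a lung carcinoma line of C57BL/6 mice, grown under the skin of both flanks of wild-type C57BL/6 female mice that were purchased at 8 weeks of age. The untreated group had 5 libraries from mice that received no antibody. The anti-LAG-3 group had 6 libraries from mice injected intraperitoneally with 200 µg of the LAG-3 antibody C9B7W on day 14 and on day 16 of tumor growth. The labels name the cells as T cells, and the study's methods give them as sorted CD8+PD-1+Ly108+TIM-3- cells, termed precursor exhausted cells, narrowed by a further surface marker, so the libraries hold a subset of that gate. By the methods of this experiment, the left flank tumor was excised on day 14 and the right flank tumor, as the last, on day 18. The study describes the tumors used for these libraries as resected on day 18, while the labels give day 21. No control antibody was given to the untreated mice, so an effect of antibody injection as such and one of LAG-3 blockade cannot be told apart.

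A T cell needs a signal from its antigen receptor and a costimulatory signal to divide, survive and produce cytokines. CD28 and ICOS belong to the immunoglobulin superfamily and recruit phosphoinositide 3-kinase, CD2 and CD226 are adhesion receptors that also signal, and CD27, OX40 (Tnfrsf4), 4-1BB (Tnfrsf9), GITR (Tnfrsf18) and TNFR2 (Tnfrsf1b) are receptors of the tumor necrosis factor (TNF) family that bind TRAF adaptors and activate NF-κB. CD40 ligand (Cd40lg) is the partner that a T cell presents to CD40 on antigen-presenting cells. In exhausted CD8+ T cells, CD28 signaling is a target of the phosphatase recruited by PD-1, and CTLA-4 and TIGIT compete with CD28 and CD226 for their ligands.

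Total counts were 317449 to 1271063 in the untreated libraries, with a median of 566144, and 313524 to 1901374 in the anti-LAG-3 libraries, with a median of 648675.5. Besides a primer barcode, the titles carry a further code. Untreated replicates 2 and 3 and anti-LAG-3 replicate 10 share the same code, and untreated replicates 4 and 5 share another. This code was not used in any fit. The titles name the primer barcode of each library, and depth went with the barcode. The 6 libraries of barcode 9 (untreated replicates 1, 3 and 5, anti-LAG-3 replicates 6, 7 and 9) had 566144 to 1901374 counts, the 4 of barcode 8 (untreated replicate 4, anti-LAG-3 replicates 8, 10 and 11) had 313524 to 451465, and the 1 of barcode 10 (untreated replicate 2) had 317449. Levels are given as CPM, the counts of a gene relative to the total of its library, with totals scaled by TMM, a trimmed mean of gene ratios between libraries. Among the sorting markers, Cd8a was at 1088 to 1301 CPM, Pdcd1 at 489.1 to 787.2 CPM and Slamf6, which encodes Ly108, at 75.5 to 121.0 CPM, while Havcr2, which encodes TIM-3, had 0 to 7 counts. Pdcd1, which encodes PD-1, was at a mean of 716.0 CPM in the untreated and 604.5 CPM in the anti-LAG-3 libraries, a log2 fold change of -0.24 with an unadjusted p of 0.0214 and an adjusted p of 0.999 in edgeR, and 4 of 6 anti-LAG-3 libraries were below every untreated one. The 7 helper and regulatory T cell markers summed to 311.4 to 418.6 CPM in the untreated and 317.0 to 480.2 CPM in the anti-LAG-3 libraries, nearly all from Ccr8, Ikzf2 and Il2ra, with 4 counts of Cd4 and 2 of Foxp3 in all 11 libraries together. The 6 dendritic cell markers summed to 12.8 to 33.8 and 10.1 to 23.6 CPM with Clec9a at 0, the 4 NK cell markers to 0 to 4.93 and 0 to 3.72 CPM with Klra8 at 0, and the 4 tumor epithelial markers to 0.890 to 6.59 and 0 to 4.72 CPM with Krt19 at 0. The 5 stromal and endothelial markers summed to 143.4 to 210.0 and 155.7 to 226.6 CPM, nearly all from Pecam1. The 8 myeloid markers summed to 23.1 to 37.8 CPM in the untreated libraries and to 22.4 to 125.1 CPM in the anti-LAG-3 libraries, highest in replicate 10, which was also the shallowest. The 6 B cell markers summed to 1.88 to 5.34 CPM in the untreated and 5.04 to 13.5 CPM in the anti-LAG-3 libraries.

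None of the 9 tested costimulatory genes differed between the anti-LAG-3 and untreated groups past an adjusted p of 0.05. The gene furthest up was Cd226, at a fold of 1.23 (95% interval 1.05 to 1.43), and the gene furthest down was Tnfrsf1b, at a fold of 0.842 (0.718 to 0.988). Each member had an adjusted p of 0.999 in the quasi-likelihood test of edgeR, adjusted by the Benjamini-Hochberg method over 6949 genes. The same test called 0 of the 6949 genes (0%), with 259 genes (3.73%) at an unadjusted p under 0.05. The likelihood ratio test of edgeR and DESeq2 also called 0 genes, with 307 and 163 at an unadjusted p under 0.05. Of the 9 members, 2 were at an unadjusted p under 0.05, with Cd226 higher (1.74% of all genes) and Tnfrsf1b lower (1.99% of all genes). Their 95% intervals leave out equality, but neither passed the adjusted test and both stand as values. For 0 of 9 members were the groups free of overlap, against 0.475% of all genes.

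The fitted values were above equality for 6 members and below it for 3, where 48.9% of all tested genes were below. The median log2 fold change was 0.03 over the 9 members and 0.0045 over all tested genes. Standard errors were 0.088 to 0.15 on the log2 scale, so each member's 95% interval stayed within 1.5-fold of equality, from 0.688 at the lowest bound to 1.43 at the highest. The data are from bulk RNA, in which fewer cells of a type and less RNA per cell cannot be told apart. The study gives n as mice, and these p-values measure the spread between the libraries.

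**Figure D1:**
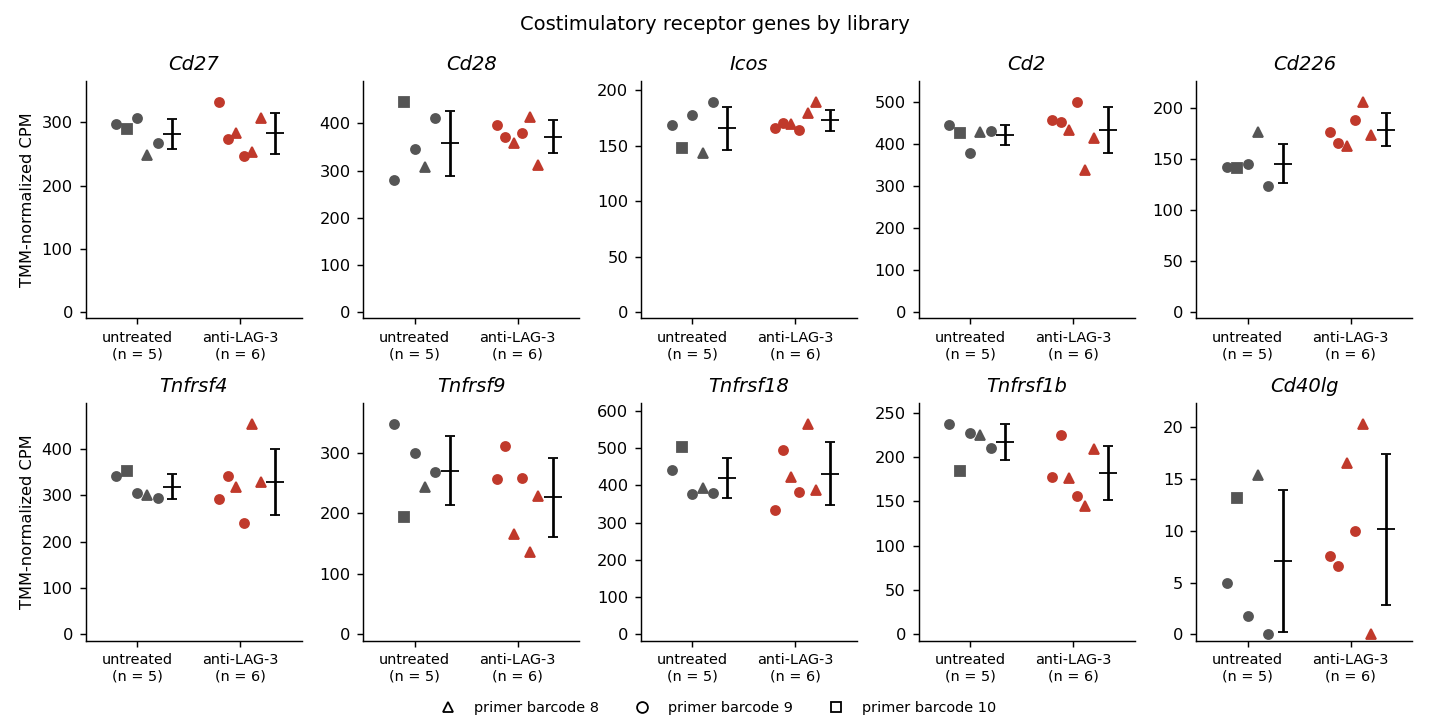
CPM of each costimulatory gene in the 5 untreated (grey) and 6 anti-LAG-3 (red) libraries, 1 symbol per library in replicate order, with the symbol shape giving the primer barcode and the bar the mean ± SD. The groups overlap in every panel, the anti-LAG-3 libraries all lie above the untreated median for Cd226 and all below it for Tnfrsf1b, and Cd40lg is at most 20.3 CPM.

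**Figure D2:**
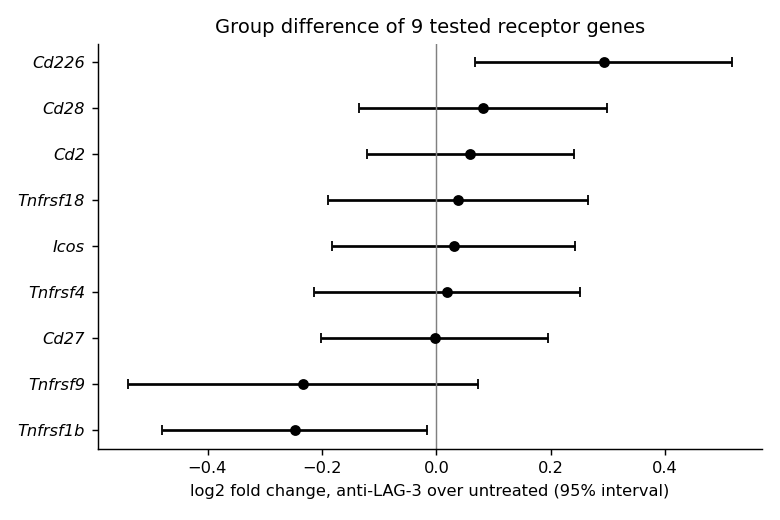
Log2 fold change of anti-LAG-3 over untreated for the 9 tested genes from edgeR's quasi-likelihood fit, with 95% intervals as bars and equality as the vertical line. The intervals of Cd226 (0.07 to 0.52) and Tnfrsf1b (-0.48 to -0.02) do not reach the line, and those of the other 7 genes cross it.

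Among the immunoglobulin superfamily receptors, CD28 binds CD80 and CD86 and gives the main costimulatory signal of naive T cells. Cd28 (chr1:60716800-60773359, plus strand, GRCm38) was at 280.0, 445.0, 345.3, 307.3 and 410.8 CPM in untreated replicates 1 to 5, and at 312.6 to 412.6 CPM with a median of 374.5 in the anti-LAG-3 libraries. All anti-LAG-3 libraries lay inside the untreated range. The means were 357.7 ± 69.2 (SD, n = 5) and 371.4 ± 34.5 CPM (SD, n = 6), with a log2 fold change of 0.08 ± 0.11 (SE) and an adjusted edgeR quasi-likelihood p of 0.999.

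ICOS, which is induced after activation and binds ICOS ligand, varied least of the members. Icos (chr1:60977927-61000320, plus strand) was at 169.2, 148.3, 178.0, 143.4 and 189.5 CPM in the untreated libraries and at 163.9 to 189.1 CPM with a median of 170.1 in the anti-LAG-3 libraries. Here too the anti-LAG-3 values fell inside the untreated range, and the log2 fold change was 0.03 ± 0.10 (SE). The coefficient of variation over all 11 libraries was 8.58%, below the 10.5% that counting error alone gives at these counts.

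Cd28, Ctla4 and Icos follow each other on chromosome 1 in the same orientation, with 113640 bases between Cd28 and Ctla4 and 62094 between Ctla4 and Icos. CTLA-4 is the inhibitory receptor for the ligands of CD28. Ctla4 was at 341.5 ± 15.2 CPM in the untreated and 371.1 ± 30.1 CPM in the anti-LAG-3 libraries, a log2 fold change of 0.12 and an adjusted p of 0.999 in the edgeR test. To compare both receptors within a library, the log2 ratio of Cd28 to Ctla4 counts was taken, which does not depend on the scaling. It was -0.22, 0.45, -0.058, -0.17 and 0.23 in untreated replicates 1 to 5 and between -0.17 and 0.23 in the anti-LAG-3 group. The anti-LAG-3 libraries lay within the untreated range, the means were 0.046 ± 0.28 (SD) and -0.00044 ± 0.19 (SD), and the exact two-sided permutation test over the 462 possible assignments of libraries to groups gave p = 0.764, which is also 0.764 after adjustment over the 2 ratios tested.

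CD2 binds CD48 in the mouse and strengthens the contact between T cell and antigen-presenting cell. Cd2 (chr3:101275899-101287939, minus strand) was at 443.4, 425.2, 379.1, 427.7 and 429.6 CPM in the untreated libraries and at 338.2 to 499.1 CPM with a median of 441.9 in the anti-LAG-3 libraries. The anti-LAG-3 values spread to both sides of the untreated ones, with replicate 10 lowest. The log2 fold change was 0.06 ± 0.09 (SE), the smallest error of any member.

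CD226 (DNAM-1) binds CD155 and CD112 and costimulates CD8+ T cells and NK cells. Cd226 (chr18:89176967-89272229, plus strand) was at 142.1, 141.7, 145.1, 176.7 and 123.8 CPM in untreated replicates 1 to 5, and at 162.8 to 206.3 CPM with a median of 175.2 in the anti-LAG-3 libraries. The groups overlapped through untreated replicate 4, since 6 of 6 anti-LAG-3 libraries were above the untreated median but 2 were above every untreated library. Of the 30 pairs of an anti-LAG-3 with an untreated library, 26 had the higher level in the anti-LAG-3 library.

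The Cd226 means were 145.9 ± 19.2 (SD, n = 5) and 179.0 ± 16.2 CPM (SD, n = 6). The log2 fold change was 0.29 ± 0.11 (SE), with an unadjusted p of 0.0125 and an adjusted edgeR quasi-likelihood p of 0.999. Within primer barcode 9 the means were 137.0 CPM in 3 untreated and 177.0 CPM in 3 anti-LAG-3 libraries, a log2 fold change of 0.34 in the edgeR fit. Within barcode 8 the single untreated library was at 176.7 CPM and the mean of the 3 anti-LAG-3 libraries was 181.0 CPM. The difference was 0.26 on the log2 scale without anti-LAG-3 replicate 10. The summed myeloid markers were above every untreated library in 5 of 6 anti-LAG-3 libraries. In the remaining library, anti-LAG-3 replicate 9, they were lowest of all at 22.4 CPM, with Cd226 at 188.7 CPM. The part of these markers in the Cd226 difference was not tested.

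TIGIT is the inhibitory receptor that shares the ligands of CD226. Tigit was at a mean of 619.2 CPM in the untreated and 621.1 CPM in the anti-LAG-3 libraries. It was lowest of all in anti-LAG-3 replicate 9, at 489.1 CPM. The log2 ratio of Cd226 to Tigit counts was -1.98, -2.21, -2.06, -1.97 and -2.21 in untreated replicates 1 to 5, and -1.84, -2.04, -2.03, -1.37, -1.62 and -1.82 in anti-LAG-3 replicates 6 to 11. All 6 anti-LAG-3 libraries were above the untreated median and 4 were above every untreated library, so the groups overlapped.

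The mean Cd226 to Tigit ratio was -2.08 ± 0.12 (SD) in the untreated and -1.79 ± 0.26 (SD) in the anti-LAG-3 libraries, a difference of 0.30. The exact two-sided permutation test gave p = 0.0325, and 0.0649 after Benjamini-Hochberg adjustment over the 2 ratios, where the smallest p that 462 assignments allow is 0.00216. The adjusted value did not pass the threshold. Without anti-LAG-3 replicate 9, which had the lowest Tigit level and the highest ratio, the difference was 0.21. Within barcode 9 the difference was 0.33 (exact permutation p = 0.2), where 3 against 3 libraries cannot go below 0.1. When libraries were exchanged only within barcodes the exact permutation p was 0.0625, or 0.125 after adjustment.

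**Figure D3:**
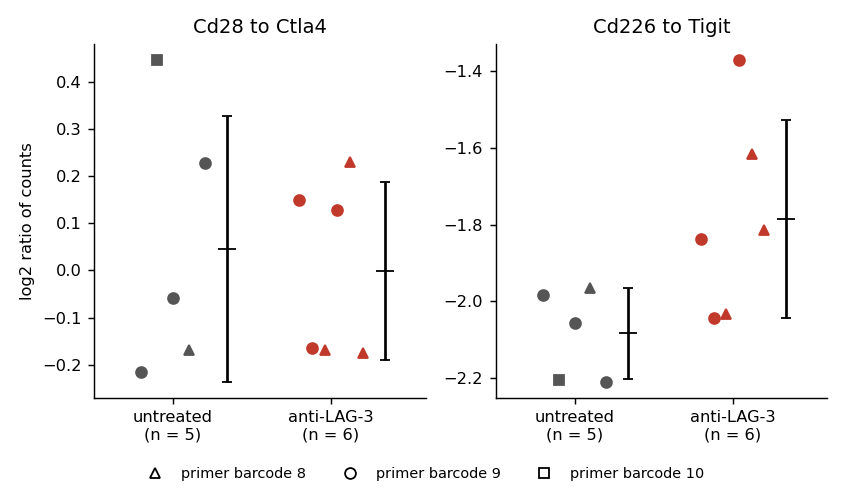
Log2 ratio of Cd28 to Ctla4 counts (left) and of Cd226 to Tigit counts (right), 1 symbol per library with its shape giving the primer barcode, and the mean ± SD as bars, for 5 untreated and 6 anti-LAG-3 libraries. The Cd28 ratios of the anti-LAG-3 group lie within the untreated range, and 4 of 6 Cd226 ratios in the anti-LAG-3 group lie above the highest untreated value of -1.97.

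The TNF receptor genes Tnfrsf4, Tnfrsf9, Tnfrsf18 and Tnfrsf1b all lie on chromosome 4, and Tnfrsf4 and Tnfrsf18 are neighbours in the same orientation with 9551 bases between them. To show what the start regions of these 4 genes share, the 250 bases before a RefSeq start of each (GRCm38.p6) are given 5′ to 3′ on the strand of the gene, with matches to 2 motifs in capitals. The motifs were the NF-κB consensus and TGANTCA, the AP-1 site, searched on both strands.
Tnfrsf4, chr4:156013445-156013694, plus strand: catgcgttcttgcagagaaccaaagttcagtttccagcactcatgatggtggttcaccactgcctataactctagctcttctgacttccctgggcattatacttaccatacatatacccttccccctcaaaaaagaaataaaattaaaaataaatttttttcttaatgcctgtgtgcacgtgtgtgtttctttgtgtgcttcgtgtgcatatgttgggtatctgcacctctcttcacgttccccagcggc
Tnfrsf18, chr4:156026072-156026321, plus strand: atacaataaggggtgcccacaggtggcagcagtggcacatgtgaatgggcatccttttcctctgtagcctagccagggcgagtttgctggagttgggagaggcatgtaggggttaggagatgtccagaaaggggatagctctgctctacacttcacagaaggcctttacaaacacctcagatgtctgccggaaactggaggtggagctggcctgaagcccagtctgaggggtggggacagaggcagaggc
Tnfrsf9, chr4:150927749-150927998, plus strand: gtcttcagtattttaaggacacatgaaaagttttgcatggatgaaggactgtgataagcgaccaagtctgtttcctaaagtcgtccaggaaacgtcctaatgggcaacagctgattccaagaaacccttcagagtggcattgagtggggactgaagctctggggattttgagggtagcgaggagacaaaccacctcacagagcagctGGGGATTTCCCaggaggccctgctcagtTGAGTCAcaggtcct
Tnfrsf1b, chr4:145246871-145247120, minus strand: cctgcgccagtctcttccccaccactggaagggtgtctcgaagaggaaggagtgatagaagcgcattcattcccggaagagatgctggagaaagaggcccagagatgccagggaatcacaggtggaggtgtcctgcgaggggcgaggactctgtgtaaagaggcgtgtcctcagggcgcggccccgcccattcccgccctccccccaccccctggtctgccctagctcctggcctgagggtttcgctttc
The Tnfrsf9 window held 3 overlapping matches to the NF-κB consensus on both strands, between -43 and -33 from the start, and an AP-1 match at -15 to -9 that counts on both strands because the motif TGANTCA is its own reverse complement. Neither motif was found in the other 3 windows. Of 32851 RefSeq promoter windows of this length, 3.9% held an NF-κB match and 6.75% an AP-1 match. A second RefSeq window of Tnfrsf9 and that of Cd27 held no match, and 5 of the 10 members had a window in the table. A match describes letters and is not a measured site.

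OX40, encoded by Tnfrsf4, is induced on activated T cells and supports their survival. Tnfrsf4 (chr4:156013843-156016612, plus strand) was at 342.4, 352.7, 304.4, 299.6 and 294.5 CPM in the untreated libraries and at 240.8 to 453.1 CPM with a median of 323.1 in the anti-LAG-3 libraries. The untreated values were close together, while anti-LAG-3 replicates 6 and 9 lay below all of them and replicate 10 above. The log2 fold change was 0.02 ± 0.11 (SE) and turned to -0.07 without anti-LAG-3 replicate 10.

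GITR, encoded by Tnfrsf18, lowers the threshold for activation in effector T cells and is high on regulatory T cells. Tnfrsf18 (chr4:156026164-156028895, plus strand) was at 441.8, 504.3, 378.2, 391.9 and 380.8 CPM in the untreated libraries and at 334.1 to 564.7 CPM with a median of 405.3 in the anti-LAG-3 libraries. As for Tnfrsf4, the anti-LAG-3 libraries reached past the untreated ones on both sides, with replicate 10 highest. The log2 fold change was 0.04 ± 0.11 (SE), and -0.03 without anti-LAG-3 replicate 10. The antisense gene Gm16008 shares 18.7% of the distinct 50-base stretches of Tnfrsf18, and without a stated use of strand its reads cannot be told apart from those of Tnfrsf18, so these levels are uncertain.

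CD27 binds CD70, and its expression is a feature of memory and precursor T cells. Cd27 (chr6:125232622-125237010, minus strand) was at 297.3, 290.0, 307.0, 248.4 and 268.2 CPM in the untreated libraries and at 247.1 to 332.2 CPM with a median of 278.3 in the anti-LAG-3 libraries. The groups covered nearly the same range, with means of 282.2 ± 23.7 (SD, n = 5) and 282.9 ± 32.5 CPM (SD, n = 6). The fold was 0.998 with a 95% interval of 0.869 to 1.15, the value nearest to equality among the members. Cd27 overlaps Vamp1 on the opposite strand.

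TNFR2, encoded by Tnfrsf1b, binds membrane-bound TNF and lymphotoxin α. Tnfrsf1b (chr4:145213463-145246870, minus strand) was at 237.3, 184.6, 226.9, 225.4 and 210.1 CPM in untreated replicates 1 to 5, and at 145.4 to 225.2 CPM with a median of 177.2 in the anti-LAG-3 libraries. All 6 anti-LAG-3 libraries were below the untreated median and 4 were below every untreated library, so the groups overlapped through replicates 7 and 11. In 3 of 30 pairs the anti-LAG-3 library had the higher level.

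The Tnfrsf1b means were 216.9 ± 20.5 (SD, n = 5) and 181.8 ± 30.5 CPM (SD, n = 6). The log2 fold change was -0.25 ± 0.11 (SE), with an unadjusted p of 0.0364 and an adjusted edgeR quasi-likelihood p of 0.999. The means were 224.8 and 186.4 CPM within barcode 9 (log2 fold change -0.26 in edgeR), and 225.4 CPM in the single untreated library against 177.2 CPM within barcode 8. The unadjusted edgeR p was 0.0046 without anti-LAG-3 replicate 7 and 0.106 without untreated replicate 1. Without anti-LAG-3 replicate 10, where the myeloid markers were highest, the log2 fold change was -0.21. Without anti-LAG-3 replicate 9, where they were lowest, it was -0.20. The part of those markers in the result was not tested.

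4-1BB, encoded by Tnfrsf9, is induced by antigen receptor signaling and marks recently stimulated CD8+ T cells. Tnfrsf9 (chr4:150914562-150946102, plus strand, overlapping Camta1 on the opposite strand) was at 347.3, 194.5, 299.9, 243.3 and 268.2 CPM in untreated replicates 1 to 5, and at 257.2, 311.5, 165.2, 258.2, 135.3 and 229.4 CPM in anti-LAG-3 replicates 6 to 11. The groups overlapped, with 9 of 30 pairs higher in the anti-LAG-3 library. The log2 fold change was -0.23 ± 0.15 (SE), with a 95% interval of -0.54 to 0.07 and an adjusted edgeR quasi-likelihood p of 0.999. It ranged from -0.37 without anti-LAG-3 replicate 7 to -0.12 without untreated replicate 1, and was -0.16 without anti-LAG-3 replicate 10.

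Tnfrsf9 varied most among the tested members, and its level went with the primer barcode and depth of the library. Its coefficient of variation was 25.7% over 11 libraries, where counting error alone gives 8.21%, and its biological coefficient of variation in edgeR was 0.17 against 0.11 on the trend for genes of its abundance. The 6 barcode 9 libraries were at 257.2 to 347.3 CPM and the other 5 at 135.3 to 243.3 CPM, with no overlap, as for 1.02% of all tested genes. No other tested member separated the barcodes in this way.

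Over the 11 libraries the log2 level of Tnfrsf9 and the log2 total count had Pearson's r = 0.808 (permutation p = 0.00183, adjusted 0.0165 over 9 members) and Spearman's rho = 0.891 (permutation p = 0.00052, adjusted 0.00468). Without the 2 libraries farthest from the median total, r was 0.739. Within barcode 9 it was 0.604 (exact permutation p = 0.203, n = 6), and no correlation was taken within barcode 8, which held 4 libraries. No other member had an adjusted permutation p for r under 0.558. Within barcode 9 the Tnfrsf9 means were 305.2 CPM in 3 untreated and 275.6 CPM in 3 anti-LAG-3 libraries, and within barcode 8 they were 243.3 CPM in 1 untreated and 176.6 CPM in 3 anti-LAG-3 libraries. Barcode and depth cannot be told apart, since every barcode 9 library was deeper than every other library.

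CD40 ligand is presented mainly by helper T cells and licenses antigen-presenting cells. Cd40lg (chrX:57212143-57224042, plus strand) had 6, 4, 2, 6 and 0 counts in untreated replicates 1 to 5 and 8, 12, 7, 8, 6 and 0 counts in anti-LAG-3 replicates 6 to 11, and it did not pass the filter. Pooled over libraries this was 18 counts or 5.04 CPM (exact 95% Poisson interval 2.99 to 7.97) in the untreated group and 41 counts or 8.55 CPM (6.14 to 11.6) in the anti-LAG-3 group. The intervals overlap and cover counting error only. A count of 0 allows up to 5.63 CPM in untreated replicate 5 and 7.56 CPM in anti-LAG-3 replicate 11, so a level like that of the other libraries was near what their depth could detect. In a fit without the filter the adjusted edgeR quasi-likelihood p was 0.722.

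To compare levels between genes, CPM was divided by the kilobases of merged exons of each gene. This assumes reads from the whole transcript. The study's methods describe a primer barcode added at the template-switch end, which corresponds to the 5′ end of the RNA, before fragmentation. If reads came from that end alone, the number of reads would not scale with length and CPM would be the fitting scale, and which holds was not tested. By CPM the order of the means was Cd2, Tnfrsf18, Cd28, Tnfrsf4, Cd27, Tnfrsf9, Tnfrsf1b, Icos, Cd226 and Cd40lg, so that 4 of 10 genes kept their place and Cd28 moved from rank 6 to rank 3. The values that follow are per length. Tnfrsf18 had the highest mean with 279.5 ± 45.4 CPM per kb (SD, n = 11 libraries), followed by Cd2 with 245.3 ± 24.0 and Tnfrsf4 with 237.5 ± 38.8 CPM per kb. Tnfrsf18 overlapped with Cd2, and Cd2 with Tnfrsf4. Tnfrsf18 was above Cd2 in 9 of 11 libraries and Cd2 above Tnfrsf4 in 7. With the length of the longest transcript in place of merged exons, Cd2 came first and Tnfrsf18 second, and the Tnfrsf18 level is uncertain for the sequence it shares with Gm16008. All libraries placed Tnfrsf4 above Cd27 on this scale, which was at 121.4 ± 11.8 CPM per kb, without overlap between the values of the 2 genes.

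Tnfrsf9 came next with 90.5 ± 23.2 CPM per kb and Cd28 with 59.7 ± 8.27 CPM per kb. Tnfrsf1b, Icos and Cd226 followed with 51.8 ± 8.15, 49.5 ± 4.25 and 33.5 ± 4.91 CPM per kb. The neighbours from Cd27 to Cd226 overlapped, and Tnfrsf1b was above Icos in 5 of 11 libraries, so these 2 had no settled order. The order of the group means was the same in both groups except that Icos stood before Tnfrsf1b in the anti-LAG-3 libraries.

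Cd40lg was last with 7.00 ± 5.55 CPM per kb and overlapped with no other member. Among the 6829 tested genes with a length, the other 9 members ranked by level per kb from the 71.6th percentile for Cd226 to the 94.2nd for Tnfrsf18. The comparisons between groups do not depend on the length.

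**Figure D4:**
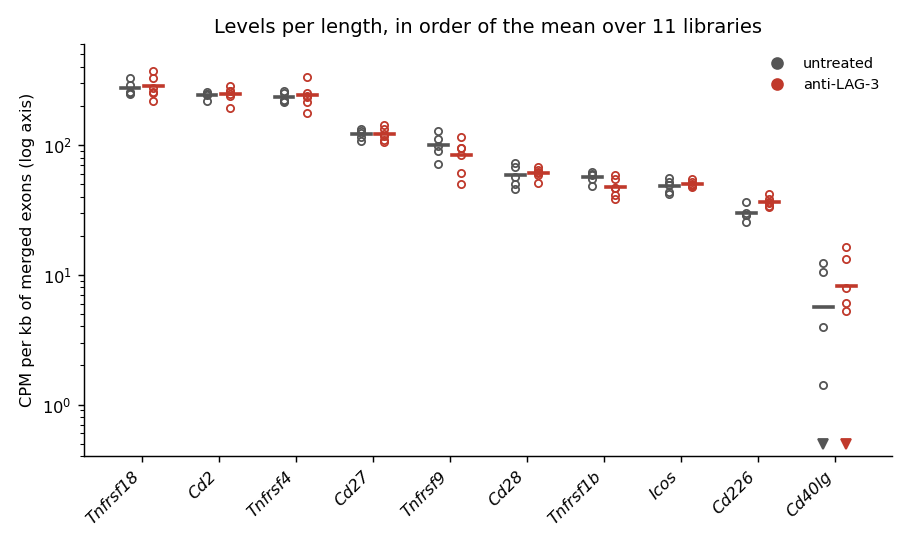
CPM per kb of merged exons on a log axis for the 10 genes, ordered by the mean over 11 libraries, with untreated (grey) and anti-LAG-3 (red) libraries as circles and group means as bars. Tnfrsf18, Cd2 and Tnfrsf4 lie above the other genes, Cd40lg lies lowest, and the downward triangles mark the library of each group in which Cd40lg was at 0.

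The 9 tested members were then compared with each other across the 11 libraries. Of their 36 pairs, 15 had a positive Pearson's r of log2 levels and the median r was -0.046. For 0 of 36 pairs did r pass an adjusted permutation p of 0.05, and 4 were at an unadjusted p under 0.05.

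The neighbouring genes Tnfrsf4 and Tnfrsf18, whose start regions are printed above, had the highest r of 0.817 (permutation p = 0.0015, adjusted 0.054). Their Spearman's rho was 0.864 (permutation p = 0.00109, adjusted 0.0392), which passes the threshold that r misses. Without the 2 libraries farthest from the median of Tnfrsf4, among them anti-LAG-3 replicate 10, r was 0.890. Within barcode 9 it was 0.626 (exact permutation p = 0.199, n = 6).

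Tnfrsf9 and Tnfrsf1b had r = 0.746 (permutation p = 0.00852, adjusted 0.142) and rho = 0.727 (adjusted permutation p = 0.256). The value was 0.520 without the 2 libraries farthest from the median of Tnfrsf9 and 0.840 within barcode 9 (exact permutation p = 0.0333, adjusted 0.28 over 36 pairs, n = 6). Cd2 and Tnfrsf4 had r = -0.767 (permutation p = 0.0118, adjusted 0.142), which became 0.126 without the 2 libraries farthest from the median of Cd2 and so rests on them.

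Within barcode 9 alone, 0 of 36 pairs passed an adjusted exact permutation p of 0.05, with a smallest adjusted value of 0.15, and 5 pairs were at an unadjusted p under 0.05. These were Tnfrsf4 and Tnfrsf1b with r = 0.905 (-0.136 over 11 libraries), Icos and Cd226 with -0.889 (-0.131), Cd28 and Tnfrsf9 with -0.872 (-0.466), Tnfrsf9 and Tnfrsf1b with 0.840 (0.746), and Tnfrsf4 and Tnfrsf9 with 0.821 (-0.515). In 19 of 36 pairs r had the opposite sign within barcode 9 and over all libraries. The libraries share their preparation and differ in depth and barcode, and the part of these in the pairs was not tested.

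**Figure D5:**
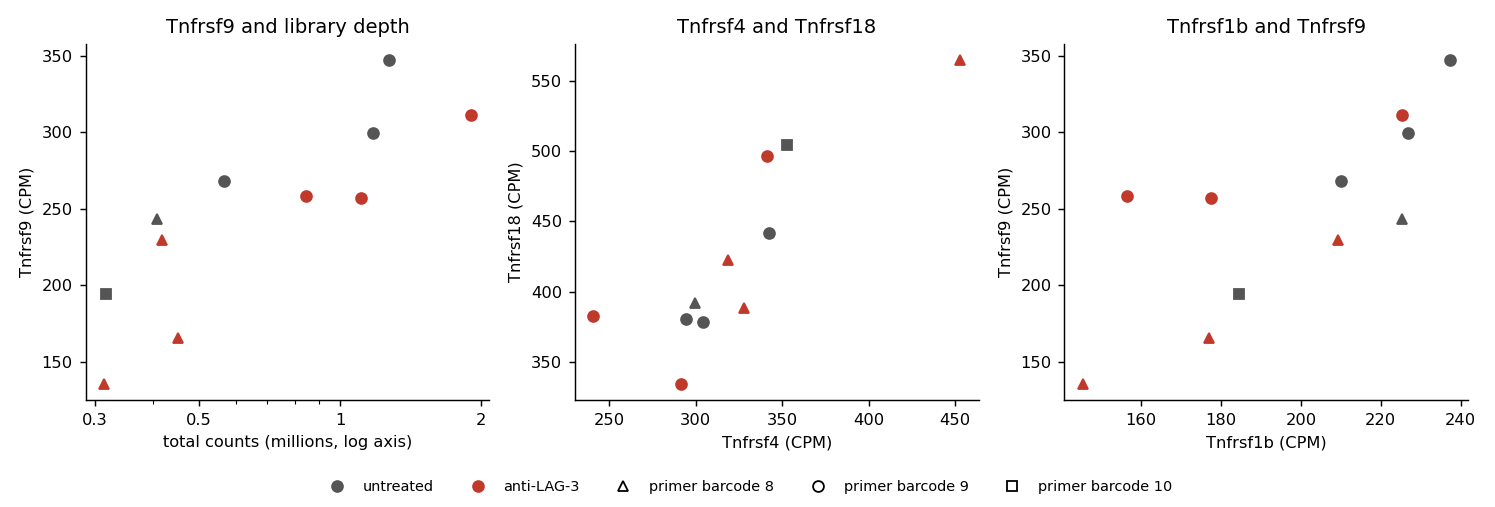
Tnfrsf9 CPM against the total counts of the library on a log axis (left), Tnfrsf18 against Tnfrsf4 CPM (middle) and Tnfrsf9 against Tnfrsf1b CPM (right), with 1 point per library coloured by group and shaped by primer barcode. All circles (barcode 9) lie at 257.2 CPM of Tnfrsf9 or higher and all other symbols at 243.3 CPM or lower, and anti-LAG-3 replicate 10 stands at the upper right of the middle panel and the lower left of the right panel.

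The genes that act with these receptors were taken from 4 lists. Of 15 sister receptors or receptors that share their ligands, 7 were tested and 0 passed the adjusted threshold in edgeR's quasi-likelihood test, with 6 above and 1 below equality and a median log2 fold change of 0.12. Btla, an inhibitory receptor for the TNF receptor HVEM, was the 1 at an unadjusted p under 0.05, at 28.5 ± 8.47 CPM in the untreated and 37.3 ± 6.70 CPM in the anti-LAG-3 libraries. Of 13 ligands, 12 were in the table and 8 were tested, with 0 past the adjusted threshold, 0 at an unadjusted p under 0.05 and a median log2 fold change of 0.18. The ligands with the smallest p were Lta, which encodes lymphotoxin α, a ligand of TNFR2, at means of 29.3 and 34.8 CPM, and Cd86, a ligand of CD28, at 25.03 and 26.8 CPM. The OX40 ligand gene Tnfsf4 was at 44.7 to 219.8 CPM, highest in anti-LAG-3 replicate 10, the library that was also highest for Tnfrsf4.

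Of 30 adaptors and signaling proteins downstream of the receptors, 28 were tested and 0 passed the adjusted threshold, with 11 above and 17 below equality and a median log2 fold change of -0.06. At an unadjusted edgeR p under 0.05 there were 0 above and 1 below equality. Malt1, a protease that acts in NF-κB signaling downstream of the antigen receptor and CD28, was at 155.2 and 179.4 CPM. Its log2 fold change was 0.19, with an unadjusted edgeR p of 0.1025 and an adjusted edgeR p of 0.999, so it was not the gene counted.

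Of 21 genes known as targets of costimulation, 20 were tested and 0 passed the adjusted threshold, with 10 on each side of equality and a median log2 fold change of -0.0040. The 2 at an unadjusted edgeR p under 0.05 were Myc, a driver of cell growth, at 42.9 ± 11.0 and 60.8 ± 12.5 CPM (log2 fold change 0.51 ± 0.19, SE), and Nfkbia, which encodes the NF-κB inhibitor IκBα and is itself induced by NF-κB, at 2333 ± 244 and 2734 ± 471 CPM (0.22 ± 0.09, SE). Both had an adjusted edgeR quasi-likelihood p of 0.999. These counts stand beside 3.73% of all tested genes at an unadjusted p under 0.05.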

How the data were processed

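Bulk RNA-seq was measured in 11 libraries (5 untreated, 6 anti-LAG-3), grouped by the treatment label. The authors trimmed reads, mapped them to reference RNA of GRCm38 and deposited raw read counts per gene symbol, and the submitters' processing notes list cutadapt 4.1 and Bowtie2 2.4.5. How reads mapping to several genes were counted and the use of strand are not given in the sources used here. All table columns matched a sample. No libraries looked like copies, with a chi-square per degree of freedom of 1.41 to 2.66 over 55 pairs.

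Genes were kept by filterByExpr (17.7 CPM, which is 10 counts at median depth, in 5 libraries, and 15 counts in total), scaled by TMM and tested with edgeR 4.0.16 (quasi-likelihood, R 4.3.3) with Benjamini-Hochberg adjustment over 6949 genes and a threshold of 0.05. The study's methods use edgeR's likelihood ratio test, which was run as an alternative with DESeq2 1.42.0, other scalings and filters, the barcode and leaving out each library. The comparison of member levels with depth and primer barcode was chosen after seeing the data. Ratios add 0.5 to both counts. Correlations use log2 CPM with a prior count of 2 and 100000 resamples. Replicate numbers are the library numbers in the labels. A count of 3 equals 1.65 to 10.1 CPM, which limits low genes.

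Coordinates and exon lengths come from GENCODE M21 (GRCm38), where 96.3% of 32469 symbols were found, and promoter windows from RefSeq (GRCm38.p6). Genes named are the members, the 2 genes with the smallest p in each list, Tigit and Ctla4, and sorting and cell type markers, except genes that are not reported here, and Tnfsf4 and Gm16008, which were chosen after their values were seen. The members and lists were chosen with earlier results of these data known. Tnfsf18 was not analysed here.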

Additional observations from a re-analysis of the deposited data

Results flagged for a closer look

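Cd2 in untreated replicate 3 stood apart from the other untreated libraries, with a log2 CPM of 8.58 against 8.74 to 8.80, and its gap to the nearest of them was 0.732 of the range of the group. It was 1 of 24 sets of libraries examined in this way, where chance gives about 1 in 20, or 1.2 sets. Without this library the log2 fold change of Cd2 was 0.011 in place of 0.059, with an adjusted edgeR p of 0.999 in both fits.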

How the results depend on the processing

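No paired analysis was run, because the labels give no pairing between the groups and the replicate numbers are only running library numbers. The further code in the titles, which some libraries of both groups share, was not used as a block. The count of genes called, 0, became 3 of 24024 with no filter, and was 0 to 2 when 1 library was left out (2 without anti-LAG-3 replicate 7). No member passed an adjusted p of 0.05 in edgeR or DESeq2 under any alternative run. The differences of Cd226, Tnfrsf1b, Tnfrsf9 and Cd2 kept their direction in all 8 alternatives and all 11 fits without 1 library, with Cd226 at 0.26 to 0.34 and 0.24 to 0.35, Tnfrsf1b at -0.28 to -0.24 and -0.35 to -0.20, Tnfrsf9 at -0.25 to -0.15 and -0.37 to -0.12, and Cd2 at 0.055 to 0.17 and 0.011 to 0.11 on the log2 scale. Differences near 0 changed sign. Cd27 was 0.0081 with upper quartile factors, 0.0067 with no filter and 0.018 with barcode as covariate, and Tnfrsf4 was -0.00055 with barcode as covariate. In barcode 9 alone Icos was -0.094, Tnfrsf4 -0.10 and the Cd28 to Ctla4 ratio 0.053. With 1 library left out, the ranges were -0.067 to 0.035 for Cd27, -0.0068 to 0.15 for Cd28, -0.0097 to 0.073 for Icos, -0.070 to 0.095 for Tnfrsf4, -0.035 to 0.11 for Tnfrsf18 and -0.11 to 0.053 for Cd28 to Ctla4. The Cd226 to Tigit difference was 0.21 to 0.35, with an adjusted exact permutation p of 0.0476 without anti-LAG-3 replicate 7 or without replicate 8. In the order of levels, 4 of 10 places were kept by CPM without length, 6 with the longest transcript, and 8 to 10 with 1 library left out (8 without anti-LAG-3 replicate 9). With total counts in place of TMM, 1 pair of members had an adjusted permutation p for r under 0.05. The cause of these changes was not tested. Cd40lg was tested only in the fit without the filter.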
